A study of Homo sapiens with 6 samples.

Results

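TRPV6 is an epithelial calcium channel, and it was examined together with 9 genes whose proteins move calcium into or out of the cytosol: the plasma membrane pumps ATP2B1 and ATP2B4, the endoplasmic reticulum pump ATP2A2, the Golgi pumps ATP2C1 and ATP2C2, the store sensors STIM1 and STIM2, and the channel subunits ORAI1 and ORAI3. The 10 genes were chosen by name, as the rows of the deposited count table that carry these symbols, of 33451 genes in the table. They were chosen with earlier results of these data known. All 10 passed the low-count filter, as did 18183 genes in all. The RNA came from MDA-MB-453, an established human breast cancer cell line with a luminal, androgen receptor-expressing profile. Cells of the experimental group were cultured for 5 days in 100 nM 25(OH)D, the main circulating metabolite of vitamin D, and cells of the control group were cultured for the same time in alcohol as the solvent. Each group held 3 mRNA libraries, and the methods describe biological replicates without saying whether these were separate cultures. If they were not, the p-values measure only the spread between these libraries.

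The totals ranged from 33268860 to 40928176 counts per library. Mitochondrial genes took 7.85% to 7.99% of the counts in control and 8.89% to 9.24% in 25(OH)D, so this share moved with the group. All 9 marker genes of the line were present, with a summed level of 11519 to 11838 CPM (counts scaled to a common library size with TMM factors) in control and 9353 to 9523 CPM in 25(OH)D. Markers of the basal list summed to 1.76 CPM at most, and those of the endothelial list to 0.489 CPM at most. The leukocyte list ran from 4.03 to 5.79 CPM in control and from 13.1 to 19.3 CPM in 25(OH)D, nearly all of it CD68, while the defining genes PTPRC and CD3E stayed under 10 counts in every library. The fibroblast list ran from 36.5 to 38.8 CPM and from 32 to 34.6 CPM, nearly all of it COL1A1, while PDGFRB and LUM stayed under 10 counts. The part of these shifts in the results on the calcium genes was not tested.

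Calcium is kept low in the cytosol, and cells raise it by opening channels and lower it again with ATP-driven pumps. TRPV6 is a constitutively active, calcium-selective channel of the apical membrane, best known from the intestine and the placenta, and its gene is a classical target of the vitamin D receptor in the intestine. In store-operated entry, STIM proteins sense that the endoplasmic reticulum has been emptied and open ORAI channels in the plasma membrane. Plasma membrane pumps expel calcium, pumps of the endoplasmic reticulum refill the store, and pumps of the Golgi load the secretory pathway.

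The promoters of TRPV6 and ATP2B1 are shown because both genes stood at nearly the same deposited RPKM in control (6.09 and 6.04), while in 25(OH)D TRPV6 was 11.1-fold and ATP2B1 1.19-fold higher. Computed over coding exons instead, the control levels were 24.5 for TRPV6 and 7.64 for ATP2B1. Both sequences are from RefSeq on GRCh38.p14 and run 5′ to 3′ on the minus strand up to the annotated start or the nearest exon, with CG dinucleotides in capitals. The TRPV6 stretch spans chr7:142885763-142885995 and holds 4 CG in 233 bases, and the ATP2B1 stretch spans chr12:89709367-89709616 and holds 38 CG in 250 bases.
TRPV6: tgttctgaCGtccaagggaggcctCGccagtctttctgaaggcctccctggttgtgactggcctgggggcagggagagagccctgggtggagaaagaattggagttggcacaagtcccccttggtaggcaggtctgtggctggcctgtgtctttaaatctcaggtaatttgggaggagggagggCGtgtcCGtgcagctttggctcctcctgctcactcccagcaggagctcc
ATP2B1: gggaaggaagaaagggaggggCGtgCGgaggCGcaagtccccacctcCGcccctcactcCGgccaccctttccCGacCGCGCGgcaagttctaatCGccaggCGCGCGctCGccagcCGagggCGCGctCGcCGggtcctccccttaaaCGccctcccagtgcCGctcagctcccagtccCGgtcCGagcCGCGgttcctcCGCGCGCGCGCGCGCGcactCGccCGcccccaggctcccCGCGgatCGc
In windows from 250 bases before to 50 bases after each start, the TRPV6 window held 4 CG, and 29.6% of the 35116 windows of the table had as few or fewer. ATP2B1 has 2 starts in the RefSeq table used, and the sequence shown is that of the start farther upstream. Its windows held 48 and 45 CG, and 98.4% and 97.1% of windows had as few or fewer, against a median of 14. A low count was not particular to TRPV6. A window of ATP2C1 held 3 CG (24.5% of windows had as few or fewer), a window of STIM1 held 7 and that of ATP2B4 held 9. Other windows of ATP2C1 held 18 and 36 CG, and other windows of STIM1 held 26, 38 and 40. The vitamin D receptor is known to bind with its partner RXR to paired hexamers separated by 3 bases. The hexamer AGGTCA was searched on both strands, as were 3 known variants of it. The first variant was AGTTCA, the next variant searched was GGGTCA, and the last of the variants searched was GGTTCA. At least 1 of these hexamers occurred in 38.6% of all windows and in 2 of the 15 windows of 8 members, those of ATP2A2 and STIM1, and none was in the TRPV6 window. Pairs of these hexamers in the same direction with 3 bases between, which hold the single hexamer by construction, occurred in 0.074% of all windows and in 0 of the 15. The letters TATAAA occurred in 11.5% of all windows and in 0 of the 15. These counts describe letters in short windows and say nothing of binding elsewhere.

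TRPV6 was the member that rose most. Its gene lies at chr7:142871203-142885762 on the minus strand of GRCh38. In control it had 2923, 2692 and 2702 counts, and in 25(OH)D it had 27642, 30078 and 26298. All 25(OH)D libraries lay far above all control libraries, and the libraries within a group were close to each other. The level was 71.6 ± 1.63 CPM (SD, n = 3) in control and 792 ± 13.3 CPM in 25(OH)D. The fold change was 11.1, with a 95% confidence interval of 10.4 to 11.7, and the log2 fold change was 3.47 with an SE of 0.0390 (adjusted p = 2.12e-16, edgeR quasi-likelihood test with Benjamini-Hochberg adjustment over all genes tested). Of the 18183 genes tested, 1 gene had a smaller p, and TRPV6 ranked 99 by the size of the rise. By RPKM, which is scaled to length, TRPV6 moved from rank 5934 to 6138 of 33451 genes in the control libraries to rank 699 to 710 in the 25(OH)D libraries. In bulk RNA, more cells that express a gene and more RNA per cell cannot be told apart. Without the mitochondrial genes the log2 fold change was 3.48.

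**Figure D1:**
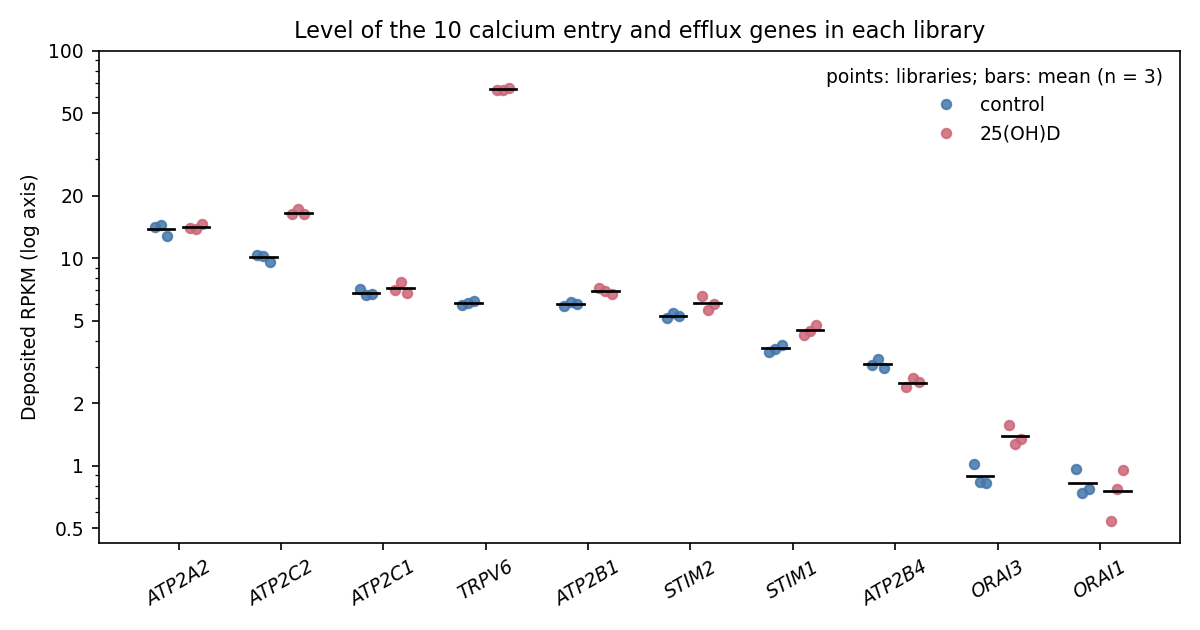
RPKM of the 10 member genes on a log axis, with 1 point for each of the 3 control and the 3 25(OH)D libraries and bars at the group means. TRPV6 moved from 6.09 to 65.3 RPKM, while ATP2A2, ATP2C1 and ORAI1 had overlapping groups.

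The exons over which TRPV6 was counted reach beyond its coding transcripts. The exon bases of the gene sum to 11925, of which the exons of coding transcripts make up 2961 in GENCODE 29. A single exon of a retained-intron transcript spans chr7:142877142-142885389, or 8248 bases, which is 69.2% of all exon bases. The counts do not separate spliced coding RNA from RNA that keeps introns, and the share of each in the rise was not tested. The level per length is therefore low beside a level computed over the coding exons, as given with the order of the genes.

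A second gene on the opposite strand, RP11-114L10.2, overlaps TRPV6 and shares 99 of its 263 exon bases with it. It had 110, 85 and 92 counts in control and 1029, 1152 and 902 in 25(OH)D, with no overlap between the groups. Its log2 fold change was 3.55 with an SE of 0.0949 (adjusted p = 1.57e-12). Its count was 3.16% to 3.83% of that of TRPV6 in every library. Whether the counting used the strand of the reads is not given in the sources used here, so the reads of this pair cannot be told apart.

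The other genes around TRPV6 were looked at after the values were seen. Of 10 genes within 100 kb, 5 were tested. TRPV5, the closest relative of TRPV6 and the calcium channel of the kidney tubule, lies 22.3 kb away. It had 2, 2 and 6 counts in control and 26, 34 and 21 counts in 25(OH)D. The groups did not overlap, and the log2 fold change was 3.08 with an SE of 0.528 (adjusted p = 3.80e-04). Its level stayed low, at 0.756 ± 0.121 CPM in 25(OH)D. Whether reads of TRPV6 reached the few TRPV5 counts was not tested. EPHB6, a receptor of the ephrin family, had a log2 difference of 1.29 with an SE of 0.603 (adjusted p = 0.121). KEL, which carries a blood group antigen, had a difference of -0.20 with an SE of 0.383 (adjusted p = 0.732), and the T cell receptor segment TRBC2 had 0.16 with an SE of 0.210 (adjusted p = 0.596). None of these 3 passed the test.

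The genes most like TRPV6 in their pattern were found by the root mean square difference over the 6 libraries, on log2 CPM centred on each gene's own control mean, among 13016 genes that averaged 100 counts or more in one of the groups. In order they were CTD-2515H24.4 (0.0572), the receptor tyrosine kinase RET (0.0808), the junction protein CGNL1 (0.0831), RP11-114L10.2 (0.0972) and RP11-21L23.2 (0.122). RET had 157, 149 and 133 counts in control and 1381, 1508 and 1323 in 25(OH)D, and CGNL1 had 709, 562 and 612 against 6008, 6617 and 5486. Their log2 fold changes were 3.39 and 3.40. With 2 groups, this measure mostly ranks genes by the closeness of their fold change to that of TRPV6.

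Across the 10 members, 6 were higher, 1 was lower and 3 were not called at an adjusted p under 0.05. The background was high: 33.8% of all genes tested were called, 17.3% higher and 16.5% lower. The groups did not overlap in 7 of 10 members, against 45.7% of all genes tested. The members' median log2 fold change was 0.24, against -0.011 for all genes tested. The members were chosen with earlier results of these data known, so these comparisons with all genes are not a test. With the limits drawn in the study, more than 1 in either direction on the log2 scale with p below 0.05 before adjustment, TRPV6 was the 1 member higher and no member was lower, against 4.02% and 2.63% of all genes tested.

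**Figure D2:**
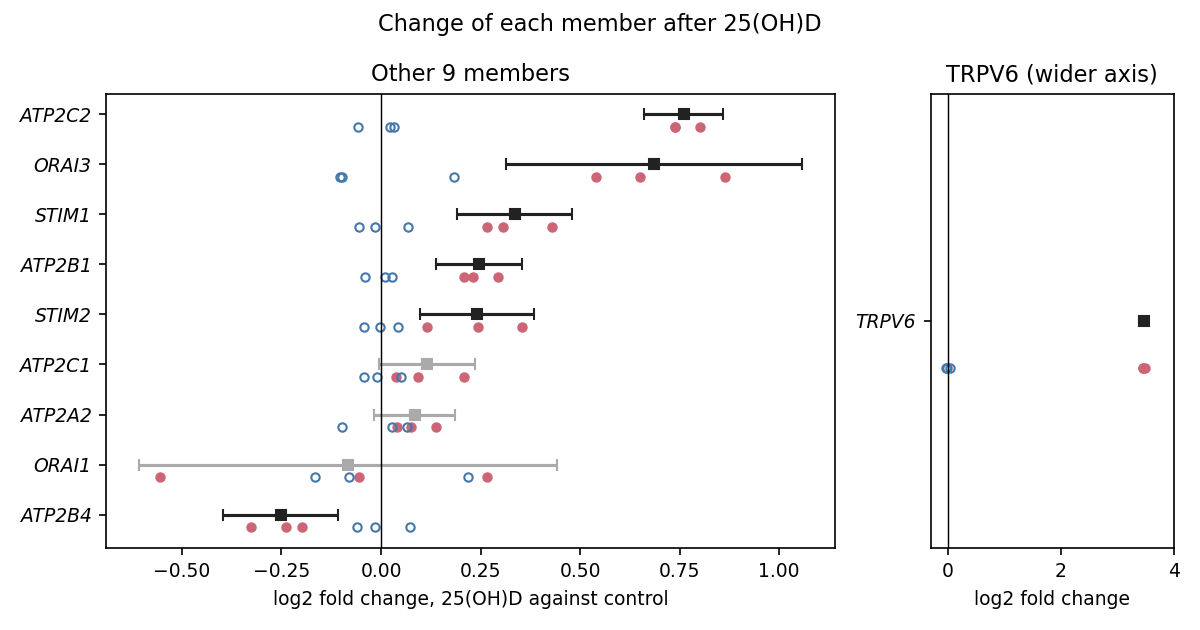
Log2 fold change of 25(OH)D against control for each member (squares, with 95% confidence intervals, black where the adjusted p was under 0.05 and grey otherwise), with TRPV6 on a wider axis of its own. Points under each square are the single libraries relative to the control mean on the log2 scale, open blue for the 3 control and filled red for the 3 25(OH)D libraries, and the intervals of ATP2A2, ATP2C1 and ORAI1 cross 0.

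The plasma membrane pumps moved in opposite directions by small amounts. ATP2B1, the pump that most tissues express, lies at chr12:89588049-89709300 on the minus strand and had 55.0, 57.6 and 56.9 CPM in control and 69.3, 66.3 and 65.3 CPM in 25(OH)D. It rose 1.19-fold (95% interval 1.10 to 1.28), a log2 fold change of 0.25 with an SE of 0.0501 (adjusted p = 0.00154), and the groups did not overlap. ATP2B4, another calmodulin-activated pump, lies at chr1:203626561-203744081 on the plus strand and had 29.3, 31.2 and 28.4 CPM in control and 23.7, 25.9 and 25.2 CPM in 25(OH)D. All its 25(OH)D libraries were lower than all its control libraries. It fell to a fold of 0.840 (0.760 to 0.928), a log2 fold change of -0.25 with an SE of 0.0672 (adjusted p = 0.00943). The call on ATP2B4 was lost without control replicate 2 (adjusted p = 0.0605) or without 25(OH)D replicate 1 (adjusted p = 0.0522), and the log2 fold change was -0.21 in both cases.

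ATP2A2, the housekeeping pump of the endoplasmic reticulum, lies at chr12:110280756-110351093 on the plus strand. It had 191, 196 and 175 CPM in control and 197, 192 and 206 CPM in 25(OH)D, and the groups overlapped. The log2 difference was 0.085 with an SE of 0.0476 (adjusted p = 0.198), and the interval of the fold, 0.988 to 1.14, leaves room for a small difference only. Of its relatives, the muscle pump ATP2A1 rose from 6.15 ± 0.335 to 8.0 ± 0.643 CPM (log2 fold change 0.38, SE 0.113, adjusted p = 0.0184). That call was lost without control replicate 1 or 2 or 25(OH)D replicate 2 or 3, with an adjusted p of up to 0.0618. ATP2A3, the pump of blood and epithelial cells, had a difference of 0.057 (adjusted p = 0.802).

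Of the Golgi pumps, ATP2C2 rose and ATP2C1 did not pass the test. ATP2C2, a pump known for its high level in mammary and other secretory epithelia, lies at chr16:84368527-84464187 on the plus strand and had 74.9, 74.4 and 70.3 CPM in control and 122, 128 and 122 CPM in 25(OH)D. The groups were well apart. The fold was 1.69 (1.58 to 1.81) and the log2 fold change 0.76 with an SE of 0.0457 (adjusted p = 1.11e-08), after TRPV6 the largest rise among the members. An antisense gene, RP11-517C16.2, shares 1927 of its 2998 exon bases with ATP2C2, which has 7352. It rose as well, by 0.49 with an SE of 0.104 (adjusted p = 0.00221), and its count was 6.78% to 8.85% of that of ATP2C2. ATP2C1, the Golgi calcium and manganese pump of most cells, lies at chr3:130850595-131016712 on the plus strand. It had 59.5, 55.9 and 57.1 CPM in control and 61.4, 66.4 and 59.1 CPM in 25(OH)D, with overlapping groups and a log2 difference of 0.12 with an SE of 0.0563 (fold 1.08, 0.996 to 1.18, adjusted p = 0.137). Without 25(OH)D replicate 3 the difference was 0.16 and passed the test (adjusted p = 0.0467).

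Both store sensors rose. STIM1, at chr11:3854527-4093210 on the plus strand, had 24.9, 25.6 and 27.1 CPM in control and 31.1, 32 and 34.9 CPM in 25(OH)D. The groups did not overlap, and the fold was 1.26 (1.14 to 1.40), a log2 fold change of 0.34 with an SE of 0.0676 (adjusted p = 0.00139). STIM2, the sensor that responds to smaller losses from the store, lies at chr4:26857678-27025381 on the plus strand and had 35.0, 37.2 and 36.0 CPM in control and 46.1, 39.1 and 42.7 CPM in 25(OH)D. Its 25(OH)D libraries were more spread but all above control. The fold was 1.18 (1.07 to 1.31) and the log2 fold change 0.24 with an SE of 0.0669 (adjusted p = 0.0121). The call on STIM2 was lost without 25(OH)D replicate 1 (adjusted p = 0.0634) and with limma on the RPKM values.

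The ORAI channel genes had few counts. ORAI1, the pore subunit of the classical store-operated channel, lies at chr12:121626550-121642677 on the plus strand and had 89, 62 and 64 counts in control and 44, 68 and 72 in 25(OH)D. The groups overlapped. The log2 difference was -0.082 with an SE of 0.244 (adjusted p = 0.830), with an interval from -0.61 to 0.44 that allows a change of moderate size in either direction. The difference was 0.048 without control replicate 1 and 0.11 without 25(OH)D replicate 1, so its sign rests on these libraries. ORAI3, a channel subunit known from breast cancer lines that express the oestrogen receptor, lies at chr16:30949066-30956461 on the plus strand and had 110, 82 and 80 counts in control and 149, 130 and 119 in 25(OH)D. The groups did not overlap, and the fold was 1.61 (1.24 to 2.08), a log2 fold change of 0.69 with an SE of 0.173 (adjusted p = 0.00663). ORAI3 shares 1397 exon bases with AC135048.13 on the same strand, and 44.0% of its 100-base stretches also occur in transcripts of AC135048.1 in GENCODE 29, so the division of reads between both is uncertain. AC135048.13 had a log2 difference of 0.44 with an SE of 0.196 (adjusted p = 0.102), and its count was 54.4% to 83.8% of that of ORAI3. ORAI2, the remaining member of the family, had a difference of -0.28 (adjusted p = 0.244).

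Set in order by RPKM, ATP2A2 was highest in control with 13.8, followed by ATP2C2 with 10.1 and ATP2C1 with 6.84. TRPV6 (6.09 ± 0.112) and ATP2B1 (6.04) came next and overlapped. STIM2, STIM1 and ATP2B4 followed with 5.30, 3.68 and 3.10, and ORAI3 and ORAI1 were lowest with 0.894 and 0.825 and overlapped. In 25(OH)D TRPV6 was first with 65.3 ± 0.835 RPKM, ahead of ATP2C2 with 16.6 and ATP2A2 with 14.2, while ATP2C1 and ATP2B1 (7.18 and 6.94) overlapped. TRPV6 made up 10.5% to 11.3% of the summed RPKM of the 10 genes in control and 51.8% to 52.4% in 25(OH)D. The sum of the other 9 genes ran from 49.0 to 51.6 RPKM in control and from 59.9 to 60.5 RPKM in 25(OH)D. The length used matters for this order. With the exon bases of coding transcripts as the length, TRPV6 was already in place 2 in control, at 24.5 against 33.2 for ATP2A2, and stood at 263 in 25(OH)D. With these lengths ORAI1 (1.25) was above ORAI3 (0.957) in control.

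Ratios between relatives were computed within each library from RPKM. ATP2C2 to ATP2C1 was 1.46, 1.55 and 1.43 in control and 2.31, 2.23 and 2.40 in 25(OH)D. Every 25(OH)D library was shifted towards ATP2C2. ATP2B4 to ATP2B1 was 0.521, 0.529 and 0.488 in control and 0.334, 0.381 and 0.376 in 25(OH)D. The log2 differences were 0.65 and -0.50, and each gave the smallest p that 3 libraries against 3 can give (two-sided exact permutation test, p = 0.1, adjusted p = 0.133 over the 4 ratios), so neither could pass 0.05. ORAI3 to ORAI1 was 1.06, 1.13 and 1.07 in control and 2.90, 1.64 and 1.41 in 25(OH)D, with the same exact p. Its log2 difference of 0.80 became 0.49 without 25(OH)D replicate 1, the library with the fewest ORAI1 counts. STIM2 to STIM1 was 1.45, 1.50 and 1.37 in control and 1.53, 1.26 and 1.26 in 25(OH)D, and the groups overlapped (log2 difference -0.096, exact p = 0.4).

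**Figure D3:**
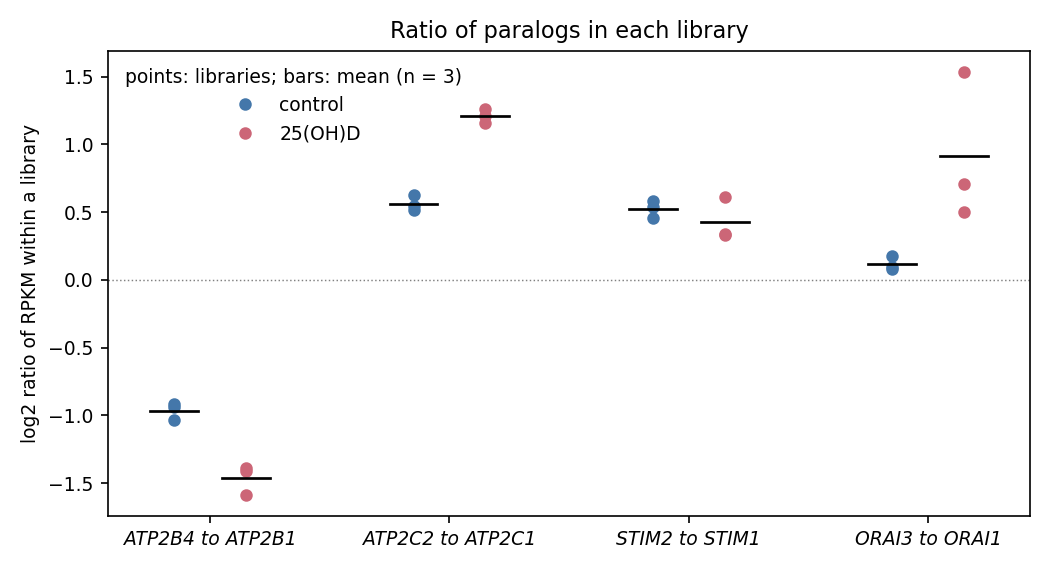
Log2 ratio of RPKM within each library for 4 pairs of related genes, with points for the 3 control (blue) and the 3 25(OH)D (red) libraries, bars at the group means and a dotted line at equal levels. The groups are apart for ATP2B4 to ATP2B1, ATP2C2 to ATP2C1 and ORAI3 to ORAI1, and overlap for STIM2 to STIM1.

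The wider pathway was described with 149 genes in 11 lists, of which 127 were in the table and 86 were tested. Of these, 27 were higher and 10 lower, or 43.0% called, with a median log2 fold change of 0.056. Among all genes tested, 33.8% were called, 17.3% higher and 16.5% lower, with a median of -0.011. The lists, too, were chosen with earlier results of these data known, so this comparison is not a test. Single calls in the lists that fall outside the rule for named genes are given because the counts are small, and they were chosen after their values were seen. Among 9 store release channels tested, 6 were higher and 0 lower at an adjusted p under 0.05. All 3 IP3 receptors, which release calcium from the endoplasmic reticulum, were higher. ITPR2 rose from 117 ± 0.900 to 271 ± 9.30 CPM (log2 fold change 1.22, SE 0.0400, adjusted p = 1.38e-11). ITPR1 and ITPR3 rose by 0.84 and 0.16 on the log2 scale, and the call on ITPR3 held in 13 of 15 alternatives. Of 8 regulators of store-operated entry tested, 3 were higher and 0 lower: CRACR2B, SARAF and ORMDL3. CRACR2B, a calcium-binding regulator of ORAI channels, rose from 220 ± 2.24 to 629 ± 16.0 CPM (log2 fold change 1.52, SE 0.0360, adjusted p = 4.76e-13). SARAF, which dampens store-operated entry, rose by 0.29.

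Of 10 pump regulators tested, 3 were higher, VMP1 and BSG among them, and 2 were lower (CALM2 and THADA). Among all genes tested, 17.3% were higher and 16.5% lower. CALM2 is 1 of several genes that encode calmodulin, which activates the plasma membrane pumps. CALM2 fell from 2883 ± 147 to 2461 ± 28.9 CPM (-0.23, SE 0.0366, adjusted p = 2.12e-04). The calmodulin genes did not all move with it, so this fall is not one of calmodulin RNA as a whole. Of 5 sodium-calcium exchangers tested, 0 were higher and 2 lower, too few genes to be read against the shares among all genes. SLC24A3, a potassium-dependent exchanger, fell from 18.6 ± 1.60 to 6.91 ± 1.52 CPM (-1.42, SE 0.131, adjusted p = 1.06e-06), and SLC24A5 fell by 0.52 on the log2 scale, a call lost without control replicate 3 (adjusted p = 0.0571). The list had a median of -0.52.

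**Figure D4:**
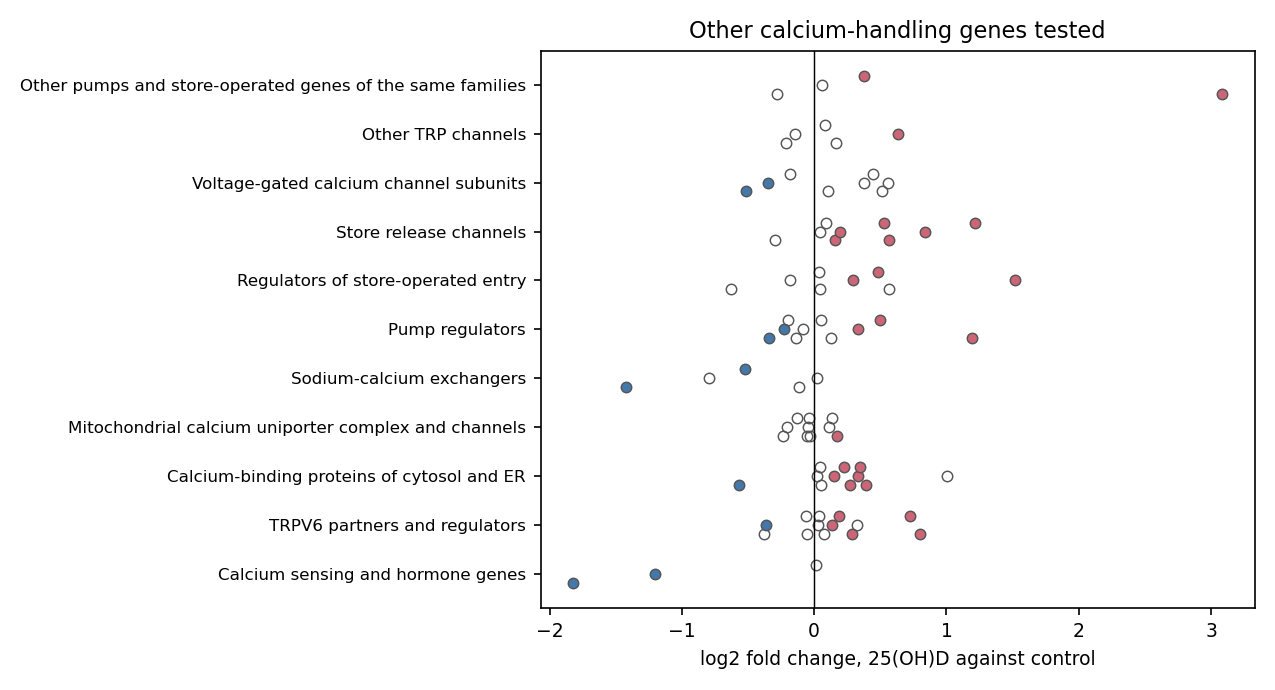
Log2 fold change of 25(OH)D against control for each tested gene of the 11 lists, with 1 point per gene, red where called higher, blue where called lower and open where not called at an adjusted p under 0.05, and spread vertically within a list for sight only. TRPV5, which had few counts, lies farthest to the right, at 3.08, and STC2 farthest to the left, at -1.82.

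Among the partners and regulators of TRPV6, 13 were tested. Of these, 5 were higher and 1 was lower, against 17.3% and 16.5% of all genes tested. ANXA2, which together with S100A10 helps to bring the channel to the membrane, rose from 383 ± 15.5 to 665 ± 20.02 CPM (log2 fold change 0.80, SE 0.0396, adjusted p = 1.34e-09). S100A10 itself rose by 0.19 (adjusted p = 0.0292), RAB11A, which recycles the channel, by 0.13 (adjusted p = 0.0480) and the ubiquitin ligase NEDD4L by 0.29 (adjusted p = 0.00113). The calls on S100A10 and RAB11A each held in 6 of 15 alternatives, and both were lost without any 1 library other than control replicate 3, with adjusted p-values of up to 0.0827 and 0.179. The vitamin D receptor VDR rose from 80.8 ± 0.739 to 133 ± 6.16 CPM (log2 fold change 0.72, SE 0.0458, adjusted p = 1.94e-08), and its partner RXRA fell from 34.7 ± 2.27 to 26.9 ± 3.39 CPM (-0.37, SE 0.0863, adjusted p = 0.00429).

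Calcium-binding proteins of the cytosol and the endoplasmic reticulum had 11 genes tested. Of these, 6 were higher and 1 was lower, against 17.3% and 16.5% of all genes tested. The chaperone CANX rose from 1312 ± 10.8 to 1648 ± 4.27 CPM (log2 fold change 0.33, SE 0.0296, adjusted p = 7.91e-07). RCN1, a calcium-binding protein of the secretory pathway, fell from 109 ± 1.35 to 73.7 ± 1.60 CPM (-0.57, SE 0.0436, adjusted p = 1.57e-07). S100G, the calbindin that carries calcium through intestinal cells, is not listed in the table. Among 10 mitochondrial uniporter and channel genes tested, VDAC2 was higher, from 92.8 ± 1.93 to 105 ± 8.49 CPM (0.18, SE 0.0561, adjusted p = 0.0257), and 0 were lower, and this call held in 7 of 15 alternatives. It was lost without control replicate 2 or 3 and without 25(OH)D replicate 1 or 2, with an adjusted p of up to 0.120.

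The remaining lists hold other channels and hormone genes. Like the lists above, they were too small for their counts to be read against the 33.8% called among all genes tested. Of 5 further TRP channels tested, TRPV1, the capsaicin receptor, was higher, from 5.11 ± 0.280 to 7.92 ± 0.583 CPM (log2 fold change 0.63, SE 0.116, adjusted p = 7.01e-04), and 0 were lower. Of 8 subunits of voltage-gated channels tested, 0 were higher and 2 lower. CACNB3 fell from 30.7 ± 1.17 to 24.1 ± 1.53 CPM (-0.35, SE 0.0687, adjusted p = 0.00117), and CACNB1 fell by 0.51 on the log2 scale (adjusted p = 0.0425), a call that held in 7 of 15 alternatives and was lost without replicate 1 or 2 of either group (adjusted p of up to 0.152). Among calcium sensing and hormone genes, 3 were tested, 0 were higher and 2 were lower. STC2, a secreted glycoprotein that also inhibits store-operated entry, fell from 30.5 ± 1.31 to 8.63 ± 0.0638 CPM (-1.82, SE 0.0738, adjusted p = 1.40e-10). PTHLH, the parathyroid hormone-like hormone, fell from 1.62 ± 0.370 to 0.702 ± 0.0836 CPM (-1.2, SE 0.281, adjusted p = 0.00414).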

How the data were processed

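The 6 libraries of mRNA from MDA-MB-453 cells were grouped by their sample labels, 3 control and 3 25(OH)D. The authors deposited counts per gene, which are unscaled whole numbers, and RPKM values. The deposited RPKM were recovered from the counts, the gene lengths and the library totals (largest relative difference 5.1e-15). The submitters' processing notes list Trimmomatic 0.36, featureCounts of Subread 1.5.1, edgeR 3.12.1 and GRCh38. The aligner and the annotation release are not given in the sources used here. Gene spans of all members equalled those of GENCODE 29.

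Counts were tested in R 4.3.3 with edgeR 4.0.16 (TMM, low-count filter with a minimum of 10, quasi-likelihood test without covariates), with Benjamini-Hochberg adjustment over the 18183 genes tested. The script was tested on simulated data. The biological coefficient of variation was 0.0788. Totals of 33268860 to 40928176 counts limit the precision of ORAI1, ORAI3 and TRPV5. Of counts from 1 to 9, 65.3% to 68.3% were even, and whether mates of a pair were counted separately is not given. If they were, a fragment gave 2 counts, and low counts carry less information than their size. Intervals of fold changes come from the edgeR fit, which shares the spread between libraries across genes, and not from each gene's own spread alone. Ratios of RPKM were compared by two-sided exact permutation tests, and limma 3.58.1 and DESeq2 1.42.0 served as alternatives. Other alternatives were the normalization, the filter, the replicate number as a block, log2 RPKM with 1 or 0.1 added, the omission of each library, and, chosen after seeing the data, the removal of 37 mitochondrial genes and the coding exon length. Tables and figures were made with Python 3.11.15, numpy 2.4.6, pandas 2.3.3, scipy 1.17.1 and matplotlib 3.10.9.

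The named genes were the 10 members, every tested relative of their families, the gene with the smallest p in each direction of each other list, and the 5 genes most like TRPV6. The members and the lists were chosen with earlier results of these data known. CYP24A1 is not listed in the table. A further gene covered by the rule and a marker gene are not reported here. The promoters of ATP2C2 and ORAI1, protein sequences and other experiments of the study were not analysed here.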

Additional observations from a re-analysis of the deposited data

How the results depend on the processing

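TRPV6 kept its call in every alternative run, with a log2 fold change of 3.46 to 3.49 when single libraries were left out and 3.23 to 3.48 in the other settings. Of 818 alternative values for the results named, 762 kept their direction and side of the threshold or stayed near the main value. The ATP2B4 log2 fold change ranged from -0.27 to -0.21 when single libraries were left out, that of ATP2C1 from 0.074 to 0.16, that of STIM2 from 0.19 to 0.31 and that of ORAI1 from -0.27 to 0.11. Changes of sign occurred in 2 genes: ORAI1 was 0.048 without control replicate 1 and 0.11 without 25(OH)D replicate 1, and ATP2A3 was -0.043 without control replicate 2 and -0.022 without 25(OH)D replicate 3. The number of members called lower ranged from 0 to 1 and that called higher from 5 to 7. With limma, STIM2 was 0.17 on log2(RPKM + 1) (adjusted p = 0.080) and 0.19 on log2(RPKM + 0.1) (adjusted p = 0.108), neither past the threshold, and the cause was not tested. Of 37 list genes called, 28 kept the call in every alternative. The median of all genes was -0.011 with TMM factors and -0.055 with library totals alone. Libraries with the same replicate number did not deviate together (correlations -0.072, -0.012 and -0.046), so the numbers were not taken to pair them. With the replicate number as a block, TRPV6 was 3.47, 6 members were higher and 1 lower, and 5953 genes were called in place of 6142.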
